A study of Mus musculus with 6 samples.

Results

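The cytosolic heat shock proteins are chaperones that bind unfolded and newly made proteins in the cytosol and nucleus. HSP70 proteins work with J-domain partners and nucleotide exchange factors and hand clients to HSP90. Some copies, such as HSC70 (gene Hspa8), are made in nearly all cells at all times. Others, above all the HSP70 genes Hspa1a and Hspa1b, are switched on by heat shock factor 1 (HSF1) when misfolded protein builds up. HSF1 binds inverted repeats of the letters GAA, called heat shock elements.

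Of 10 genes set out for description, a gene was taken where at least 1 probe set of the array carried its name and no other. This gave 8 genes and 21 probe sets, among 18193 genes and 34945 probe sets with a single name. They were the inducible genes Hspa1a, Hspa1b, Hsph1, Hsp90aa1, Dnajb1 and Bag3 and the constitutive genes Hspa8 and Dnaja1. Hsp90ab1 and Hsf1 were not analysed here. The split into inducible and constitutive genes follows their textbook use. It is not strict, since Hsph1 is also made without stress and Hspa8 and Dnaja1 also respond to heat.

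The samples were CD4+ T cells with a memory phenotype, from spinal cord on 3 arrays (titled CNS mem) and from draining inguinal lymph node on the other 3 (titled dLN mem). All came from female C57BL/6 mice aged 8 to 10 weeks with acute clinical experimental autoimmune encephalomyelitis (EAE) induced by MOG35-55, a peptide of myelin oligodendrocyte glycoprotein. Both groups were therefore immunised and diseased, and naive or unimmunised cells were not analysed here. The sources used here give neither the number of animals behind an array, nor how the cells were released from each tissue and sorted, so the p-values speak only of the spread among these arrays, and that spread may be technical. The comparison asks how T cells in the inflamed cord differ from those left in the draining node.

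The arrays had median intensities between 68 and 71. Of 10 markers of CD4 T cells 9 were measured, 0 were called between the tissues, and their summed intensity was 53603 to 73566 in spinal cord, against 59535 to 71597 in lymph node. Markers of macrophages, monocytes and microglia were higher on the spinal cord arrays in sum, at 6002 to 12142 in spinal cord against 2443 to 3203 in lymph node. Of 15 measured members 15 had a positive change, with a median log2 change of 1.10, and 0 were called. With the array number as a block 8 were called higher, where 3.67% of all genes were. Itgam was on every array at or below an intensity of 27, the 20th percentile over all arrays. Most of the myeloid sum was Ccr2, a chemokine receptor that memory T cells also make. The other 14 genes summed to 1333, 5328 and 2757 on spinal cord arrays 1, 2 and 3, against 689, 719 and 780 on lymph node arrays 1, 2 and 3. Neutrophil markers summed to 471 to 2187 in spinal cord, against 364 to 513 in lymph node (0 of 8 called, median log2 change 1.06). Of 7 measured oligodendrocyte markers 0 were called (median 0.10), with Mog, Olig1 and Olig2 at or below that intensity on every array, and of 8 neuron and astrocyte markers 0 were called (median 0.18), with Snap25 there. The 5' signal of the actin control, as a share of its 3' signal, was 20.3% to 40.5% in spinal cord, against 8.86% to 56.8% in lymph node. That of the Gapdh control was 4.05% to 24.2% in spinal cord, against 3.07% to 25.1% in lymph node. Both shares were lowest on array 2 and highest on array 3 of each tissue. An array has no read depth, so precision is limited by the number of arrays.

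Hspa1a and Hspa1b, which encode the stress-inducible HSP70, were the 2 member genes that rose in the spinal cord samples, and the other 6 were not called. Over all 18193 genes, 2.54% were called at an adjusted p below 0.05 by limma, 1.13% higher and 1.41% lower. Bulk arrays cannot tell a change in the number of cells that make a transcript from a change in the amount per cell. Hspa1a had the second highest and Hspa1b the fifth highest log2 change of all genes (ranks 2 and 5). The 6 others had log2 changes of 0.12 to 0.60 (spinal cord minus lymph node, here and below), and 0 members were called lower. With the array number as a block Dnajb1 was also called higher, where 3.67% of all genes were. The median over the 8 genes was 0.48, against 0.00 over all genes.

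Hspa1a, read by 1 probe set, had intensities of 6949, 5226 and 5415 in spinal cord arrays 1, 2 and 3, against 123, 60 and 54 in lymph node arrays 1, 2 and 3. Every spinal cord array lay far above every lymph node array, and lymph node array 1 was the highest of its group. The log2 mean was 12.51 ± 0.22 in spinal cord and 6.20 ± 0.65 in lymph node (SD, n = 3 each). The change was 6.30 ± 0.33 (standard error, SE), or 79.0-fold, with a 95% interval of 5.49 to 7.12 and an adjusted p of 0.00191 by limma with Benjamini-Hochberg adjustment. On lymph node arrays 2 and 3 it read below the array medians of 68 to 71 and no detection calls were used, so these values may be background and the fold a lower bound. Hspa1a was called in all 6 fits that left out a single array (log2 change 6.08 to 6.67, highest adjusted p 0.0246). Within array pairs of one number the ratio of spinal cord to lymph node was 56.5, 87.1 and 100.3.

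Hspa1b, a neighbouring gene that encodes a near-identical HSP70, was read by 3 probe sets. The probe set with the highest mean, which stood for the gene, had intensities of 12193, 11036 and 9676 in spinal cord arrays 1, 2 and 3, against 667, 359 and 192 in lymph node arrays 1, 2 and 3. The groups did not overlap, and again lymph node array 1 was the highest of its group. The change was 4.93 ± 0.44 SE, or 30.5-fold (95% interval 3.87 to 5.99, adjusted p = 0.00777 by limma). Leaving out spinal cord array 2 (log2 change 4.92, adjusted p = 0.0516) or lymph node array 2 (4.93, adjusted p = 0.0501) ended the call, and it held in 4 of 6 such fits. The size of the change hardly moved in these 2 fits.

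The second Hspa1b probe set read 10413, 9256 and 4900 in spinal cord, against 383, 137 and 55 in lymph node (log2 change 5.77 ± 0.72 SE). The third read 11625, 10295 and 5723 in spinal cord, against 522, 204 and 68 in lymph node (5.51 ± 0.74 SE). On both, array 3 was the lowest of its group in either tissue, and the groups did not overlap. Tested over all 34945 probe sets, of which 1.49% were called and 0.701% were called higher, all 4 probe sets of Hspa1a and Hspa1b were higher. The adjusted p by limma was 0.00316 for Hspa1a, 0.0111 for the first Hspa1b probe set, 0.0233 for the second and 0.0302 for the third. Whether a probe set of one gene also detects the transcript of the other was not tested, so the separate shares of Hspa1a and Hspa1b are uncertain.

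The stretches before the start sites of both genes are shown because these genes moved together. They cover the 250 bases before the start site on the gene's strand, from RefSeq with build GRCm38.p6. Of the 8 genes 6 were matched there, with 10 start sites. Hspa8 and Hsp90aa1 were not matched. Capitals mark a pair of heat shock units, GAANNTTC or TTCNNGAA, each of which reads the same on both strands. Hsph1 and Dnaja1 are added as the other genes with such a pair.
Hspa1a, chr17:34972157-34972406, minus strand: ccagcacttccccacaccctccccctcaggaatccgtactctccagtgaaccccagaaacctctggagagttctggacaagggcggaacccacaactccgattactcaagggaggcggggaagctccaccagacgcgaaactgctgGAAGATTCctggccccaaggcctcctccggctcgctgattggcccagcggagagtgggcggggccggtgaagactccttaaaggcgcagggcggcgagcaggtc
Hspa1b, chr17:34959239-34959488, minus strand: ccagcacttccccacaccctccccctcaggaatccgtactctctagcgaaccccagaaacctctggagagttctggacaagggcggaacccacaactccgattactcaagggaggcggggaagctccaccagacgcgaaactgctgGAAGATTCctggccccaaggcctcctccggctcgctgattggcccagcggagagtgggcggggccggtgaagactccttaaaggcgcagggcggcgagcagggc
Hsph1, chr5:149636337-149636586, minus strand: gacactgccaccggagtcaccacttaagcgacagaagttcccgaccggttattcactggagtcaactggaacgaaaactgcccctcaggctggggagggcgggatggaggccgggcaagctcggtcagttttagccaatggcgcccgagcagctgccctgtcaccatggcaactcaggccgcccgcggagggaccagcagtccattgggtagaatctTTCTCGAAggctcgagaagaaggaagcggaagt
Dnaja1, chr4:40722218-40722467, plus strand: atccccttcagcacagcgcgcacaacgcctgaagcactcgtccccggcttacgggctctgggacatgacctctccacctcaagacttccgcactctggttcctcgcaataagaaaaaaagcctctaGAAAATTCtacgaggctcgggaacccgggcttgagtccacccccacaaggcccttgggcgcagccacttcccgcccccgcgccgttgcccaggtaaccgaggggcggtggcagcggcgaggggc

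The Hspa1a and Hspa1b stretches differed at 3 of 250 bases (98.8% identical). Each held 1 exact pair of units, GAAGATTC, whose first base lay 104 bases before the start site. The first Hsph1 start site had TTCTCGAA from base 33 and the first Dnaja1 start site had GAAAATTC from base 124 before it. No pair was matched before either start site of Dnajb1 or that of Bag3, which says only that these letters are not in those windows. Among all 32851 windows of this length, 6.69% held GAANNTTC, 7.17% held TTCNNGAA and 12.8% held either. Exact runs of 3 alternating units with the same spacing, searched on both strands, were in 0.466% of all windows and in none of those of the 6 genes. Units that differ from these letters by a base were not searched, so any window may hold further units that were not counted. An exact pair stood before Hspa1a and Hspa1b, which were called higher, and before Hsph1 and Dnaja1, which were not called. The changes of Hsph1 and Dnaja1 were positive (log2 0.42 and 0.13), and the part of the pair in any change was not tested.

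**Figure D1:**
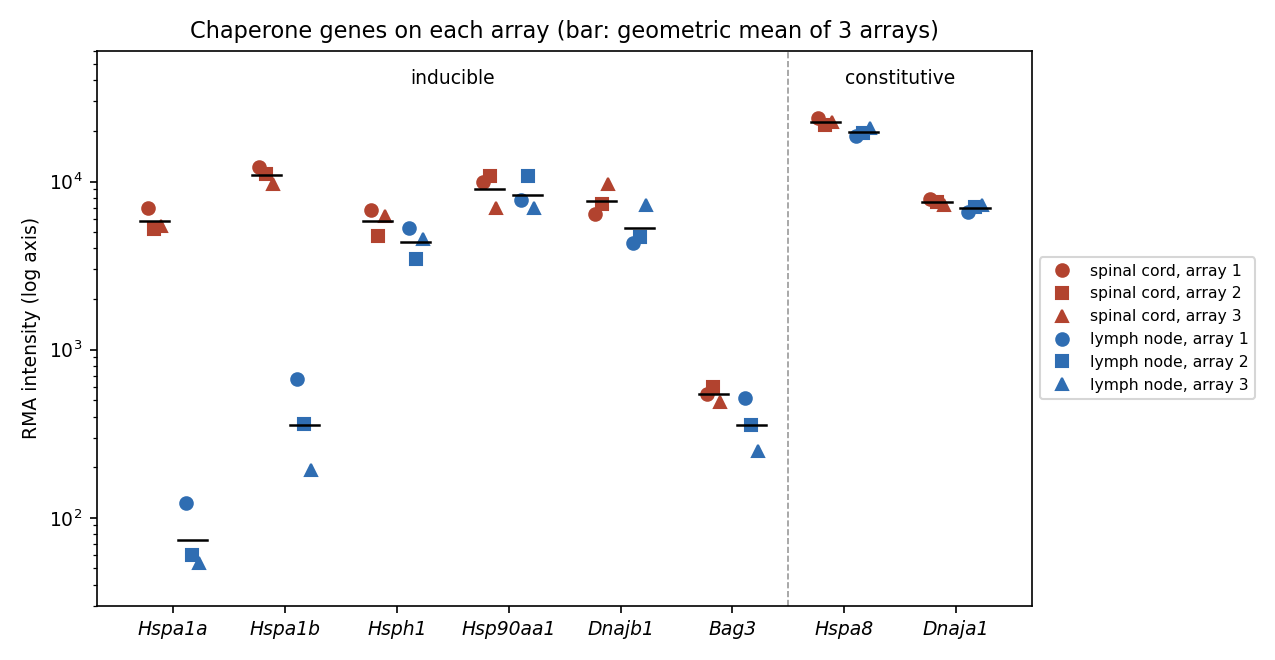
Intensity (RMA values, log axis) of the 8 chaperone genes on each of the 6 arrays, spinal cord in red and lymph node in blue, with a bar at the geometric mean of the 3 arrays. Hspa1a and Hspa1b lie at 5226 to 12193 in spinal cord and at 54 to 667 in lymph node, while the tissues lie close together for the other 6 genes.

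The other 4 inducible genes were not called by limma. Dnajb1, the HSP40 J-domain partner that is induced with HSP70, had intensities of 6391, 7349 and 9643 in spinal cord arrays 1, 2 and 3, against 4301, 4710 and 7266 in lymph node arrays 1, 2 and 3, so the tissues overlapped. The change was 0.54 ± 0.25 SE (95% interval -0.08 to 1.16, adjusted p = 0.42). With the array number as a block it kept its size by construction and was called (SE 0.11, adjusted p = 0.0387, where 3.67% of all genes were called higher and 7.45% lower). Its second probe set read 1231, 770 and 1053 in spinal cord, against 514, 359 and 455 in lymph node. These groups did not overlap, and the change was 1.19 ± 0.22 SE (95% interval 0.64 to 1.74, adjusted p = 0.0779 over probe sets, and 0.00746 with the block).

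Bag3, a nucleotide exchange cochaperone of HSP70 that is itself an HSF1 target, had intensities of 543, 603 and 485 in spinal cord, against 513, 354 and 249 in lymph node. Lymph node array 1 was level with the spinal cord arrays and the other lymph node arrays were lower. The change was 0.60 ± 0.27 SE (95% interval -0.06 to 1.27, adjusted p = 0.398), with ratios within pairs of 1.06, 1.70 and 1.95. Hsph1, the HSP110 exchange factor, had intensities of 6763, 4751 and 6268 in spinal cord, against 5317, 3477 and 4554 in lymph node, and the tissues overlapped. Each spinal cord array lay above the lymph node array of its number, by ratios of 1.27, 1.37 and 1.38 (log2 change 0.42 ± 0.21 SE, adjusted p = 0.469, and 0.0666 with the block). Its other probe set gave 0.72 ± 0.38 SE.

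Hsp90aa1, the inducible HSP90 isoform, was level between the tissues, with intensities of 9902, 10772 and 6972 in spinal cord, against 7721, 10798 and 6973 in lymph node. Arrays 2 and 3 read almost the same in both tissues, and array 1 read higher in spinal cord. The change was 0.12 ± 0.24 SE (95% interval -0.46 to 0.70, adjusted p = 0.888). It was -0.00644 once spinal cord array 2 was left out, and -0.0112 once lymph node array 3 was. Its 5 probe sets had changes between -0.05 and 0.33, with 0 called. The probe set at -0.05, the 1 negative of all 21, read 22, 24 and 27 in spinal cord, against 21, 34 and 22 in lymph node, around the 20th percentile of 27, and the 3 brightest had changes of 0.12 to 0.33.

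The constitutive genes differed little. Hspa8, which encodes HSC70, had intensities of 23755, 21636 and 22482 in spinal cord, against 18632, 19476 and 20859 in lymph node. The tissues did not overlap, yet the change was only 0.20 ± 0.11 SE (95% interval -0.06 to 0.47, adjusted p = 0.49), or 1.15-fold. Dnaja1, another HSP40, had intensities of 7906, 7578 and 7275 in spinal cord, against 6559, 7018 and 7252 in lymph node. The lowest spinal cord array and the highest lymph node array were almost equal, and the change was 0.13 ± 0.11 SE (95% interval -0.13 to 0.39, adjusted p = 0.687). The 3 further Hspa8 probe sets and the 2 further Dnaja1 probe sets had positive changes and were not called.

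In 4 of the 8 genes (Hspa1a, Hspa1b, Hspa8 and Dnaja1) every spinal cord array lay above every lymph node array, as it did for 8.81% of all genes. For single probe sets the count was 7 of 21, against 8.39% of all probe sets. Of the 21 probe sets 20 had a positive change. The lower 95% bounds of the 4 probe sets of Hspa1a and Hspa1b were at 3.69 or above, and the upper bounds of the other 17 were at 1.96 or below. By the gene fit, the highest upper bound among the other 6 genes was 1.27, that of Bag3. An intensity says little about a gene's level beside another gene's, so the comparison between genes rests on changes alone.

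**Figure D2:**
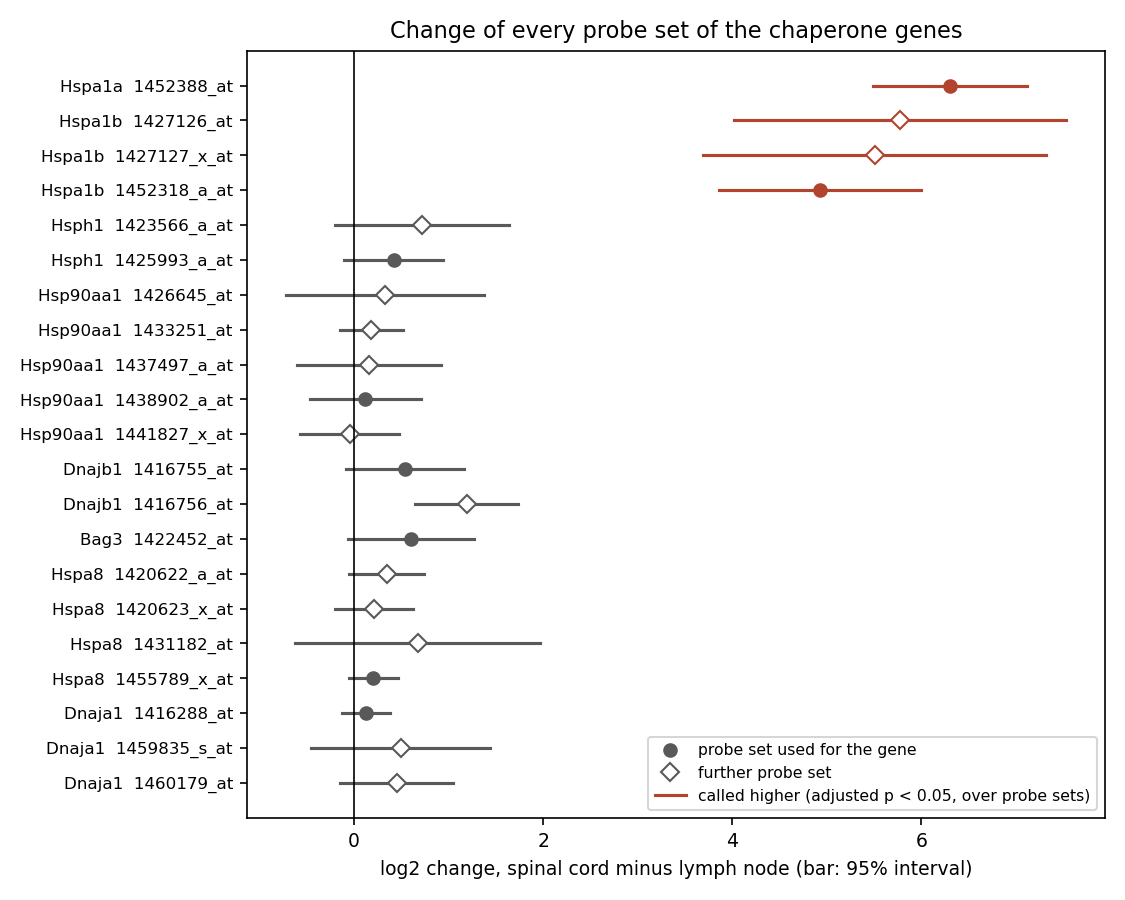
Log2 change (spinal cord minus lymph node) of each of the 21 probe sets with its 95% interval from limma, filled circles for the probe set used for a gene and open diamonds for the others. The 4 probe sets of Hspa1a and Hspa1b have lower bounds of 3.69 or more, and the other 17 have upper bounds of 1.96 or less.

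To set inducible against constitutive genes within an array, the mean log2 value of the 2 constitutive genes was subtracted from that of the 6 inducible genes, and each array was expressed relative to the lymph node mean. It came to 2.003, 2.002 and 1.956 in the spinal cord arrays, against 0.42, -0.07 and -0.34 in the lymph node arrays, in the order of their numbers. The spinal cord arrays were nearly equal, the lymph node arrays were more spread out, and the tissues did not overlap. The difference between the tissues was 1.99 ± 0.22 (SE, n = 3 each). The genes were chosen with earlier results of these data known, so this difference has no p-value, and 3 against 3 arrays could not give an exact permutation p below 0.1.

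Most of this contrast lay in the HSP70 pair. For Hspa1a and Hspa1b alone against the constitutive genes it was 5.45 ± 0.49 (SE), and without them the other 4 inducible genes differed from the constitutive ones by 0.25 ± 0.10. Those 4 genes gave 0.21, 0.30 and 0.26 in spinal cord, against 0.18, -0.04 and -0.14 in lymph node, all relative to the lymph node mean. The spinal cord arrays were again above the lymph node arrays, by a small margin over lymph node array 1. Left out alone, Hsph1 changed the contrast of all inducible genes to 2.33.

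The inducible and constitutive copies were also compared within each family. Hspa1a minus Hspa8, the inducible and the constitutive HSP70, was 6.29, 6.01 and 6.01 in spinal cord, against 0.82, -0.28 and -0.53 in lymph node, relative to the lymph node mean. That is a difference of 6.10 ± 0.42 (SE). Dnajb1 minus Dnaja1, of the J-domain proteins, was 0.09, 0.35 and 0.80 in spinal cord, against -0.22, -0.18 and 0.40 in lymph node. Here the tissues overlapped and the difference was 0.41 ± 0.29, while within pairs of one number it was 0.30, 0.53 and 0.40. This pair used the probe set that stood for each gene. The second Dnajb1 probe set, whose own change was 1.19 ± 0.22 SE without overlap of the tissues, was not used in it. The gap between the changes of Hspa1a and Hspa1b depended on the Hspa1b probe set. It was 1.37 ± 0.25 (SE, log2) with the first, 0.53 ± 0.56 with the second and 0.79 ± 0.60 with the third, and the tissues overlapped with the second and the third.

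**Figure D3:**
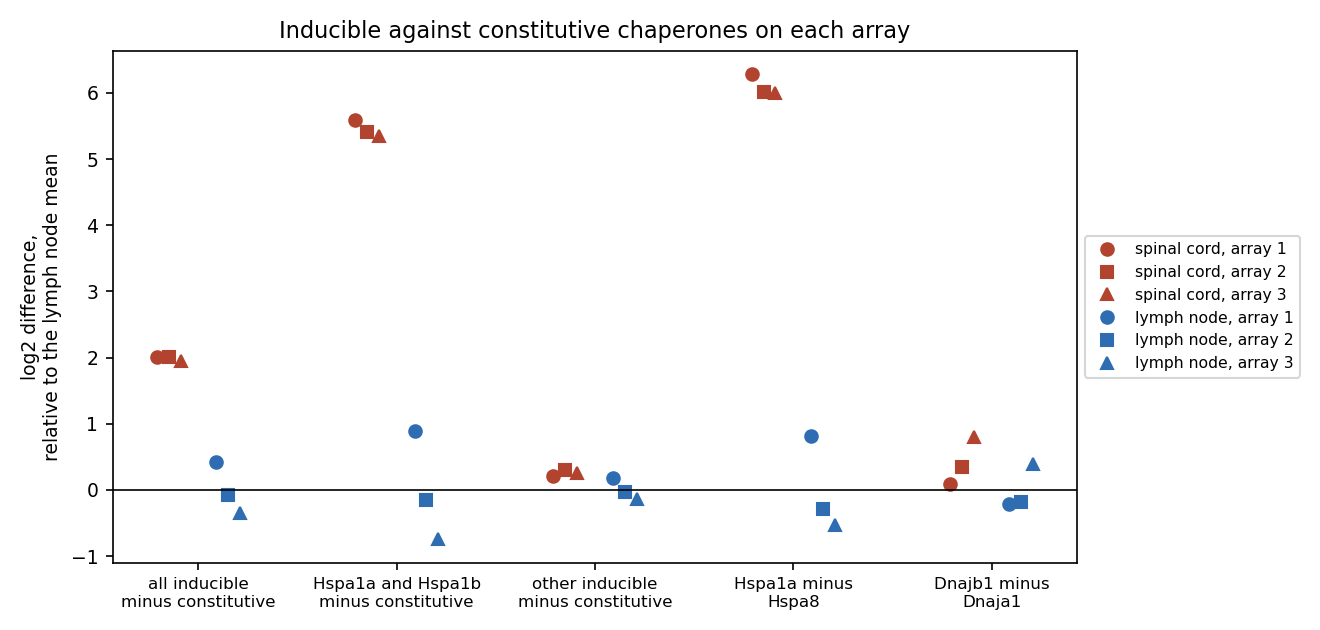
Log2 differences between gene classes or gene pairs on each array, relative to the lymph node mean, spinal cord arrays in red and lymph node arrays in blue. Each gene is shown by the probe set that stood for it. The 3 plotted differences that hold Hspa1a or Hspa1b are 1.956 to 6.29 in spinal cord. With these probe sets the other inducible genes (0.21 to 0.30) and Dnajb1 minus Dnaja1 (0.09 to 0.80) stay near the lymph node values.

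As a list, other HSF1 targets lay near the median of all genes. Of 22 measured targets outside the 8 genes, 0 were called in either direction, 12 had a positive change, and their median was 0.07, against 0.00 over all genes. With the block 3 were higher and 1 was lower, where 3.67% of all genes were called higher and 7.45% lower. Hspb1, a small heat shock protein, read 225, 130 and 173 in spinal cord, against 140, 126 and 145 in lymph node, and Cryab, another, was at or below an intensity of 27 on every array.

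Dnajb4, a J-domain protein related to Dnajb1, had the highest change of these targets, with intensities of 966, 1809 and 2860 in spinal cord arrays 1, 2 and 3, against 283, 501 and 614 in lymph node arrays 1, 2 and 3. The tissues did not overlap, and within each tissue the array numbers kept the same order. The change was 1.95 ± 0.47 SE, with an adjusted p of 0.114 by limma and 0.00188 with the block. Zfand2a, a proteasome-linked gene induced by arsenite and heat, read 1269, 2874 and 3500 in spinal cord, against 700, 917 and 1177 in lymph node (1.36 ± 0.41 SE, adjusted p = 0.199, and 0.0119 with the block). Ier5, an immediate early gene known to act on HSF1, read 5215, 7751 and 10020 in spinal cord, against 3690, 3262 and 4443 in lymph node (0.97 ± 0.26 SE, adjusted p = 0.152, and 0.027 with the block). Mrpl18, a mitochondrial ribosomal protein gene, had a change of -0.62 ± 0.12 SE (adjusted p = 0.0676, and 0.0359 with the block). Zfand2a, Ier5 and Hspb1 were named after their values were seen.

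The partners of HSP70 and HSP90 had list medians close to 0. Of 18 measured HSP70 cochaperones 0 were called (median -0.13). With the block Dnajb4 was higher and Stub1 and Dnajb2 were lower, where 3.67% of all genes were called higher and 7.45% lower. Stub1, the ubiquitin ligase CHIP that works with HSP70, read 862, 902 and 1004 in spinal cord, against 1896, 1349 and 1387 in lymph node (-0.73 ± 0.17 SE, adjusted p = 0.104, and 0.0464 with the block). Of 12 measured HSP90 cochaperones 0 were called (median -0.03), also with the block. Ahsa1, which activates the HSP90 ATPase, had a change of -0.46 ± 0.18 SE (adjusted p = 0.338), and Fkbp5, a cochaperone of steroid receptors, of -0.36 ± 0.19 SE (adjusted p = 0.484). In the list of HSF family genes and regulators (median -0.03) 1 of 5 genes was called, where 2.54% of all genes were. This was Fem1b, a substrate receptor of a ubiquitin ligase that is not itself an HSF gene. Whether Fem1b acts on HSF1 was not tested. It fell to 1042, 1081 and 1141 in spinal cord, against 2004, 2544 and 2732 in lymph node (-1.15 ± 0.15 SE, adjusted p = 0.0198 by limma). Of 6 fits that each dropped an array, only that without lymph node array 1 called it (adjusted p up to 0.102 in the others). Hsf2, a relative of HSF1, had a change of 0.05 ± 0.19 SE.

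The chaperonin, mitochondrial and proteasome lists had medians below 0. Of 14 measured genes of the TRiC chaperonin and prefoldin, which fold actin and tubulin, 0 were called, 2 had a positive change and the median was -0.22. Cct3 and Cct5, subunits of TRiC, had changes of -0.31 ± 0.10 SE and -0.31 ± 0.13 SE (adjusted p = 0.245 and 0.359). Of 8 mitochondrial chaperone and protease genes 0 were called (median -0.22), with Dnaja3, a mitochondrial J-domain protein, at -0.51 ± 0.20 SE and Clpp, a protease subunit, at -0.56 ± 0.36 SE. Of 26 proteasome subunits 0 were called (median -0.25), with Psma4 at -0.64 ± 0.16 SE (adjusted p = 0.132, and 0.0263 with the block) and Psma1 at -0.30 ± 0.12 SE.

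Among 12 endoplasmic reticulum chaperone genes Dnajb9, a J-domain protein of that compartment, rose (log2 change 1.32 ± 0.23 SE, adjusted p = 0.049). It read 3632, 4690 and 3439 in spinal cord, against 1236, 2096 and 1440 in lymph node, without overlap. None of the 6 fits without a single array called it (adjusted p 0.0604 to 0.171). The other 11 were not called, where 1.13% of all genes were called higher, and the list median was -0.07. Hspa5, the HSP70 of that compartment (BiP), read 15025, 15974 and 15078 in spinal cord, against 12580, 13697 and 11925 in lymph node, a change of 0.27 ± 0.11 SE. Hspa5 was named after its values were seen. Over the 8 pathway lists together, 106 of 110 genes were measured and the median was -0.13. Of these genes 1 was called higher and 1 lower, where 1.13% of all genes were called higher and 1.41% lower.

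**Figure D4:**
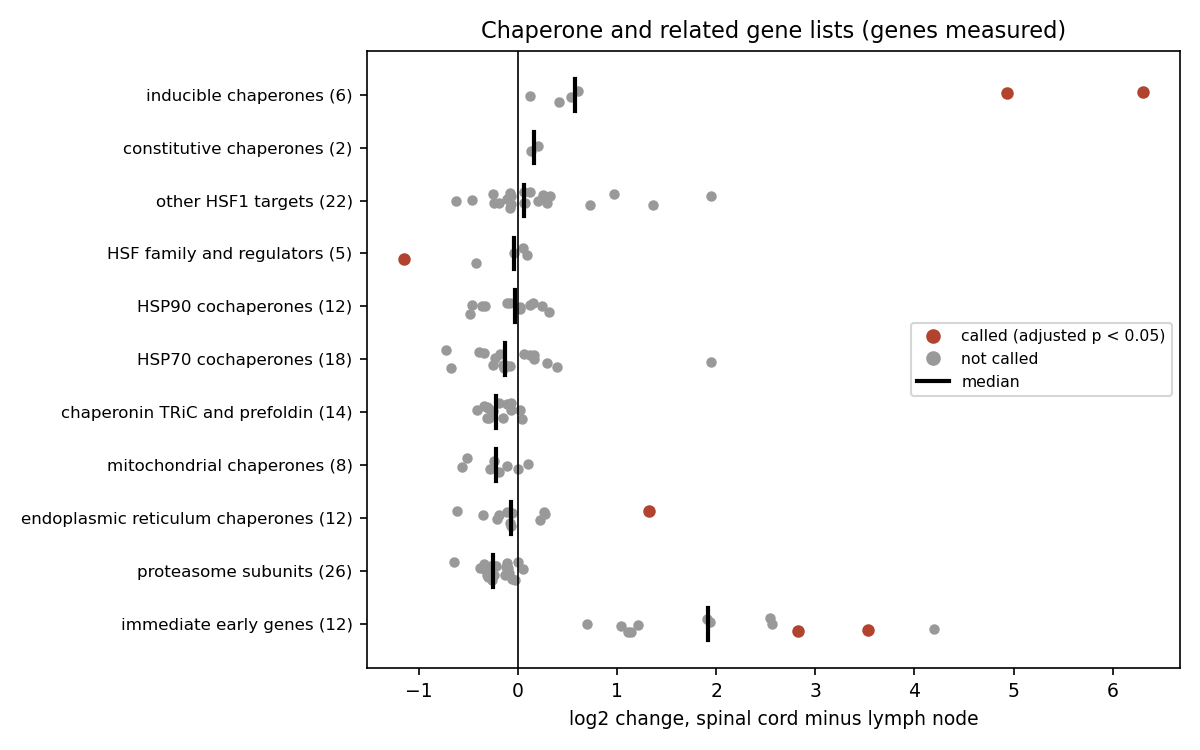
Log2 change (spinal cord minus lymph node) of each measured gene in the 8 genes' classes, the pathway lists and the immediate early genes, called genes in red, with a bar at the list median. Hspa1a and Hspa1b lie at 6.30 and 4.93, the pathway lists centre between -0.25 and 0.07, and the immediate early genes centre at 1.92.

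Immediate early genes, which are switched on within minutes of many stimuli, read higher on the spinal cord arrays. All 12 had a positive change, with a median of 1.92, and 2 were called higher, where 1.13% of all genes were. The called genes were Nr4a1 (7.08-fold, 2.82 ± 0.40 SE, adjusted p = 0.0274 by limma) and Atf3 (11.6-fold, 3.53 ± 0.51 SE, adjusted p = 0.0274). With the block 10 were higher, where 3.67% of all genes were called higher. Nr4a1 kept its call only without lymph node array 1 and Atf3 only without spinal cord array 1, with adjusted p reaching 0.132 and 0.127 in the other such fits. The summed intensity of the list was 63346 to 102839 in spinal cord, against 19617 to 50795 in lymph node. Spinal cord array 1 was the highest of its group for Hspa1a and Hspa1b, for this sum (102839) and for the signal of the dap control transcript (15357, against 2985 and 949 in spinal cord arrays 2 and 3). Lymph node array 1 was the highest of its group for Hspa1a, Hspa1b, Bag3, the sum (50795) and the dap signal (11208, against 7093 and 2167 in lymph node arrays 2 and 3). Bag3 was highest in spinal cord array 2. By the probe sets that stood for the genes, Hsph1 was highest in array 1 of both tissues and Hsp90aa1 in array 2. Dnajb1, Dnajb4, Zfand2a and Ier5 were highest in array 3, and Hspa8 and Dnaja1 in spinal cord array 1 and lymph node array 3. This order depended on the probe set. The second Dnajb1 probe set was highest in array 1 of both tissues, and the other Hsph1 probe set in array 3 of both. The part of the immediate early genes or of array differences in the change of Hspa1a and Hspa1b was not tested.

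Myeloid transcripts also read higher on the spinal cord arrays, and their part in the change of Hspa1a and Hspa1b was not tested. Csf1r, the receptor that defines macrophages and microglia, read 237, 1486 and 754 in spinal cord, against 99, 57 and 98 in lymph node (2.97 ± 0.67 SE, adjusted p = 0.096, and 0.0361 with the block). C1qb, a complement gene of macrophages, read 42, 176 and 150 in spinal cord, against 13, 14 and 12 in lymph node (3.00 ± 0.54 SE, adjusted p = 0.0519, and 0.0119 with the block). Both were called when spinal cord array 1 was left out (adjusted p 0.0317 for Csf1r and 0.00828 for C1qb). Both were lowest among the spinal cord arrays in array 1, and so was the sum of the myeloid list without Ccr2 (1333). With Ccr2 the sum was lowest in array 3 (6002). Camp and S100a8, of the neutrophil list, had changes of 0.85 ± 0.33 SE and 2.08 ± 0.95 SE (adjusted p = 0.319 and 0.403), and S100a8 read 752 in spinal cord array 2 and 30 to 122 on the other arrays. Itgax, a dendritic cell and myeloid integrin, rose 2.88-fold (1.53 ± 0.17 SE, adjusted p = 0.0128 by limma). It was the 1 of 5 dendritic cell genes called, where 1.13% of all genes were called higher. Itgax lost its call when array 2 of either tissue was left out (adjusted p up to 0.0625).

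In the remaining marker lists 0 genes were called, and with the block Cd79b and Cnp were lower, where 7.45% of all genes were. Cd5 and Cd44, of the CD4 T cell list, had changes of -0.56 ± 0.36 SE and 0.18 ± 0.22 SE, and Cd8a and Cd8b1 of 0.23 ± 0.22 SE and -0.10 ± 0.11 SE. Cd79b, a chain of the B cell receptor, read 43, 29 and 39 in spinal cord, against 117, 79 and 57 in lymph node (-1.15 ± 0.29 SE, adjusted p = 0.134, and 0.0267 with the block), while Blnk, another B cell gene, was at 34 to 41 on all arrays. Cnp, listed for oligodendrocytes, read 4059 to 6644 in spinal cord, against 6453 to 9444 in lymph node (-0.75 ± 0.25 SE, adjusted p = 0.236, and 0.0324 with the block, lower in spinal cord), and Olig1 read 21 to 25 on all arrays. Gfap and Slc1a2, of astrocytes, had changes of 0.25 ± 0.14 SE and 0.21 ± 0.12 SE, and Col3a1 and Pdgfra, of fibroblasts, of 0.23 ± 0.15 SE and 0.14 ± 0.13 SE.

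The genes whose pattern was most like that of Hspa1a, by Pearson's r of log2 values over the 6 arrays among 10916 genes above the 40th percentile of mean value, were Nfil3 (r = 0.997), Cxcl10 (0.996), H1f2 (0.995), Klrb1b (0.995) and Kcnmb4os2 (0.994). The arrays form 2 groups, so such a value mostly reflects the difference between the tissues and is given as a description. Nfil3, a leucine zipper transcription factor, had a change of 2.94 ± 0.23 SE, Cxcl10, an interferon-inducible chemokine, of 2.30 ± 0.20 SE and H1f2, a linker histone, of 3.56 ± 0.23 SE. Klrb1b, a lectin receptor gene known from natural killer cells, had a change of 4.72 ± 0.26 SE. Kcnmb4os2, an antisense transcript, had a change of 0.55 ± 0.10 SE that was not called (adjusted p = 0.0623).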

How the data were processed

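Labelled cRNA was made from 1 ng of total RNA by amplification in 2 cycles, per the labels' protocols, and the authors computed intensity values with RMA, a method that corrects background, normalizes between arrays and summarises probe sets, per the submitters' processing notes. No RMA version was stated. The deposited intensity values are whole numbers from 9 to 39505 on a linear scale, for 45101 probe sets, so log2 was taken here before any test. Amplification in 2 cycles can shorten 5' ends and add variation between arrays.

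Names came from the platform annotation: 34945 probe sets had 1 symbol, 932 several and 9160 none, beside 64 controls. By gene ID 34741 matched the RefSeq table of GRCm38.p6, with 0 symbols changed. The probe set with the highest mean stood for a gene. Genes were fitted by tissue with limma 3.58.1 (lmFit, eBayes) in R 4.3.3, as a two-sided test whose p-values were adjusted (Benjamini-Hochberg) over 18193 genes, and probe sets likewise over 34945. A call is an adjusted p below 0.05. Intervals are moderated 95% intervals. Tables and figures used Python 3.11.15, pandas 2.3.3, numpy 2.4.6 and matplotlib 3.10.9. The fit was tested on simulated data.

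The members and lists were chosen with earlier results of these data known, so no list is tested or adjusted over itself. Named genes were all members, up to 3 called genes of each list (2 by lowest p where none was called) and the 5 most like Hspa1a. Pairs of arrays of one number deviated together from the tissue means (correlation across genes 0.576, 0.509 and 0.777, against -0.569 to 0.00506 for other numbers). The numbers were used as pairs only for the ratios and differences within pairs and for the replicate block. Calls given without the block come from the fit by tissue alone, which ignores the pairing. The pairing rests on the data, since the labels do not say what a number shares. Centring within each tissue pulls the values for other numbers below 0 where that for the same number is positive. Part of the gap between same and other numbers is therefore built in. No array was a copy of another (93.5% or more of the values differed). Alternatives were the replicate block, dropping each array in turn, a minimum mean value, median centring, quantile normalization, a variance trend, array weights, other probe set choices, a floor and stricter thresholds.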

Additional observations from a re-analysis of the deposited data

How the results depend on the processing

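Hspa1a kept its call under all 15 alternatives tried for it (log2 change 6.08 to 6.67, highest adjusted p 0.0269) and Hspa1b under 13 of 15 (4.48 to 5.77, highest adjusted p 0.0516). The block, the minimum mean value, the variance trend and the floor left the size of both changes the same by construction. Hspa1a has 1 probe set, so the other probe set choices left its size the same too. The 2 exceptions for Hspa1b left out an array numbered 2. These 2 fits also had the fewest genes called higher over all genes, 49 and 50, against 109 to 136 in the other fits without a single array. The cause was not tested. The number of members called higher was 1 to 2 without single arrays and 3 with the replicate block, which added Dnajb1 (0.54, adjusted p = 0.0387), and 0 members were called lower under any alternative. The block changed no other call among the members. Hsp90aa1 ranged from -0.0112 to 0.307 without single arrays, and was below 0 when spinal cord array 2 (-0.00644) or the third lymph node array was dropped. The inducible minus constitutive contrast, 1.99, was 0.25 without Hspa1a and Hspa1b and 2.33 without Hsph1, which follows from the genes removed. It was 1.82 to 2.20 without single arrays. Over all genes, 206 were higher and 257 lower, against 668 and 1355 with the block, 49 to 136 and 32 to 190 without single arrays, 76 and 81 with the floor at the 20th percentile and 56 and 47 at an adjusted p below 0.01. Hsp90aa1 minus Hsp90ab1 was not run. Detection calls were not used here, and with 3 arrays per tissue the intervals of Dnajb1 and Bag3 include 0.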
